A study of Mus musculus with 6 samples.

Results

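The enzymes of triglyceride synthesis were examined in mouse liver after loss of AEG-1 from hepatocytes. The group holds 10 genes, named by symbol: Gpd1 and Gk, which make glycerol 3-phosphate, Gpam, Agpat2, Agpat3, Lpin1, Lpin2 and the final acyltransferases Dgat1 and Dgat2 of the glycerol phosphate route, and Mogat1 of the monoacylglycerol route. Each symbol matched 1 of the 46983 rows of the count table through GENCODE vM21. All 10 passed the filter on low counts, as did 16441 genes in all.

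Both groups were 12-week-old mice on a C57BL/6 background, fed chow and not treated. In the knockout group, AEG-1DHEP, the AEG-1 gene Mtdh is deleted in hepatocytes, while other liver cells keep it. The control group is AEG-1fl/fl in the series description, which means that it carries the conditional allele undeleted, and WT in the sample titles. The promoter that drives the deletion is not given in the sources used here. RNA came from whole liver, so fewer cells of a type and less RNA per cell cannot be told apart.

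Hepatocytes build triglyceride by adding fatty acids in turn to glycerol 3-phosphate. A glycerol-3-phosphate acyltransferase adds the first fatty acid, an acylglycerol-phosphate acyltransferase adds the next to give phosphatidate, and a lipin removes the phosphate to give diacylglycerol. A diacylglycerol acyltransferase then completes the molecule, which is stored in droplets or secreted in very-low-density lipoprotein. A shorter route acylates monoacylglycerol, and it is best known from the intestine.

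Control replicates 1 and 2 held the same count in each of the 46983 rows. Their difference is thus below sampling noise, and they entered each mean and test as 1 sample, which left 3 knockout and 2 control libraries, with totals of 29557477 to 33685670 counts. Levels are given as CPM, the count relative to the library total after scaling by the TMM method of edgeR (a trimmed mean over genes). Mtdh, the deleted gene, was at 2.23 to 2.90 CPM in knockout and at 48.0 and 54.6 CPM in control livers, so each library went with its label. Hepatocyte markers were abundant in every library, with Alb at 53730 to 80510 CPM. By the chi-square of raw counts between 2 libraries, in which abundant genes weigh most, the distinct libraries did not separate by genotype. Divided by its degrees of freedom, the chi-square was lowest between knockout replicates 1 and 2, at 44.5. For knockout replicate 3 it was 49.4 to control replicate 3 but 86.3 and 106 to knockout replicates 1 and 2. The controls were the least alike pair, at 227.

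Of the 10 enzymes, 9 had a higher fitted level in knockout livers, but none passed the test. By edgeR's quasi-likelihood test, 0 of 10 passed an adjusted p of 0.05, and every adjusted p was 1.0, against 0.00608% of all tested genes called (Mtdh alone). DESeq2 and limma-voom also called 0 of 10, where they called 0.116% and 0.00608% of all genes. At an unadjusted p under 0.05 there was 1 member, Dgat2, higher in knockout livers, beside 1.63% of all genes (3.43% in either direction). The median log2 fold change of the 10 was 0.36, against 0.01 over all kept genes, of which 52.1% were above 0. The knockout libraries lay wholly above the control libraries in 2 of the 10, Dgat2 and Agpat2, and in 8.16% of all genes. None of the 10 lay wholly below, where 8.72% of all genes did.

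**Figure D1:**
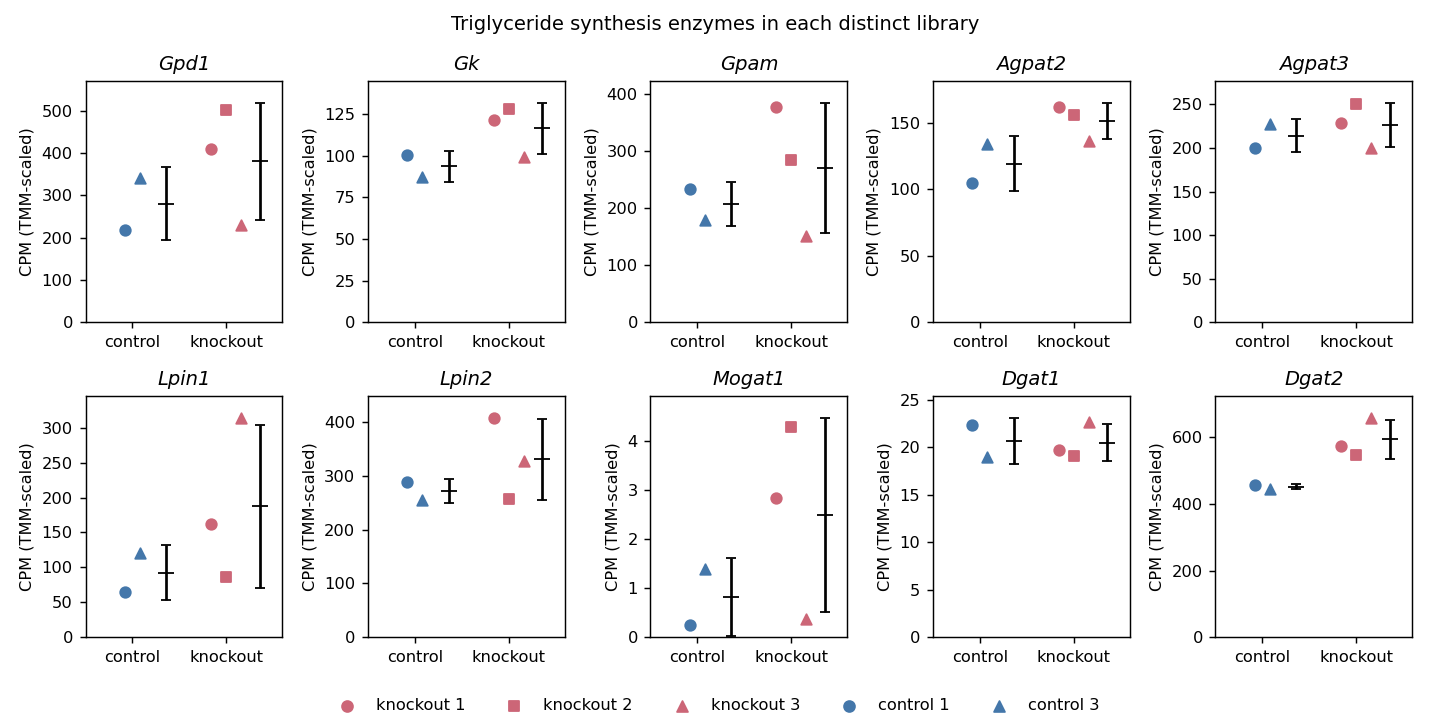
TMM-scaled CPM (y axis, from 0) of each enzyme in the 2 distinct control and 3 knockout libraries, with the mean and SD of each group beside the points. The groups are apart for Dgat2 and, narrowly, for Agpat2, and share part of their range for the other 8.

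The 95% intervals of the fitted differences show what 5 libraries could resolve. The interval included 0 for 9 of the 10 enzymes. The narrowest belonged to Dgat1, from -0.34 to 0.31 on the log2 scale, and the widest to Mogat1, from -0.83 to 4.07. The median half-width over all kept genes was 0.46.

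**Figure D2:**
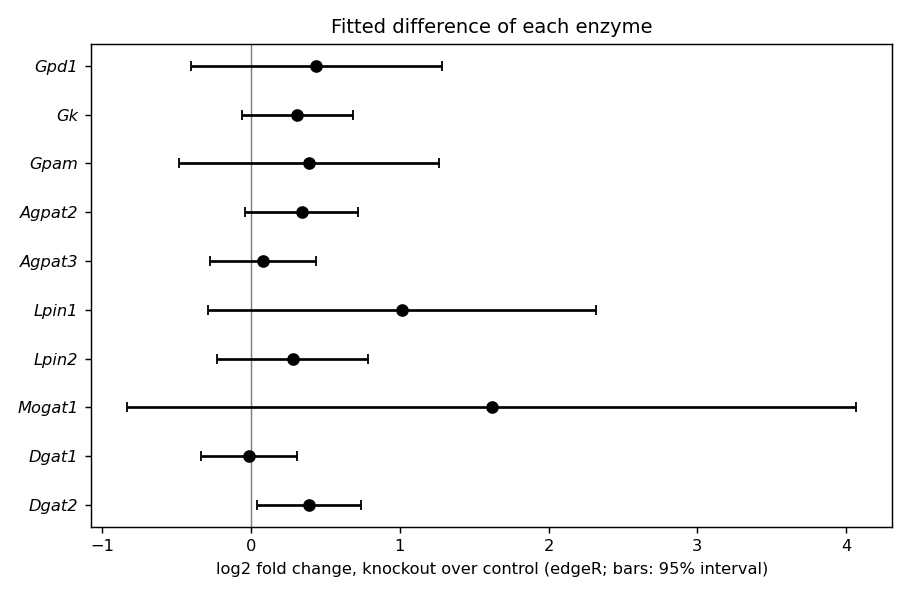
Fitted log2 fold change of each enzyme, knockout over control (x axis), with its 95% interval from edgeR's quasi-likelihood fit. Only the interval of Dgat2, from 0.04 to 0.74, lies above 0, and that is before adjustment for the number of genes tested.

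The sequence just before the start of transcription is shown for 4 members, each at a reference start with no annotated exon in that window. They are Agpat2, whose groups were apart, Gk, and the pair Lpin1 and Lpin2, which carry out 1 reaction but varied unequally between livers. A start of Gpam and another start of Lpin2 also met this condition and are not shown. The sequences are the 250 bases before the RefSeq start on GRCm38.p6, read 5′ to 3′ on the strand of the gene. Capitals mark a GC box (GGGCGG) or an E-box (CACGTG) found on either strand.
Agpat2 (chr2:26604418-26604667, minus strand): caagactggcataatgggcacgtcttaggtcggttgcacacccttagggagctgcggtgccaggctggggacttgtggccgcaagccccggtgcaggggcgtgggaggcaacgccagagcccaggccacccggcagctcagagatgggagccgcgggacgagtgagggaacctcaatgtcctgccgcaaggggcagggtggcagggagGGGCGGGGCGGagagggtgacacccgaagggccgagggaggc
Gk (chrX:85776820-85777069, minus strand): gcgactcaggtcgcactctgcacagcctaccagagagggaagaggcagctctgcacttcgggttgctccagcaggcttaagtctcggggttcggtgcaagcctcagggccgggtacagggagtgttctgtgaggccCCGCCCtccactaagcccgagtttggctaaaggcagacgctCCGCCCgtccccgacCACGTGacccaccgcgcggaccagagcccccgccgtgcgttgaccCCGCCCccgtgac
Lpin1 (chr12:16610967-16611216, minus strand): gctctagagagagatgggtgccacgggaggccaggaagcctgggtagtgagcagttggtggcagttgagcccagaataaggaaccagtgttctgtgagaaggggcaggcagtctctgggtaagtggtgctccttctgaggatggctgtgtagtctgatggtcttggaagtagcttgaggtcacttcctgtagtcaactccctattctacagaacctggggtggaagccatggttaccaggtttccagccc
Lpin2 (chr17:71183282-71183531, plus strand): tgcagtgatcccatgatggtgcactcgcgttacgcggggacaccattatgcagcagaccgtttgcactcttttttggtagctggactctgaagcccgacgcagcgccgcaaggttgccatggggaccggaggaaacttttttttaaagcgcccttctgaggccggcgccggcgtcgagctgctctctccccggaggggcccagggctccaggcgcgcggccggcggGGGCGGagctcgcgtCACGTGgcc

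The start of Agpat2 and of Gk coincided with the edge of the gene in the count table. The Lpin2 start shown is 1 of 3 in the table and lies 972 bases inside the counted span, and that of Lpin1 lies 21196 bases upstream of the counted span. The Agpat2 window holds 2 GC boxes that share 1 base, 42 to 32 bases before the start, and 69.2% of its bases were G or C. Gk has 3 GC boxes and an E-box at 58 to 53 bases before the start, and Lpin2 has 1 of each. The Lpin1 window has neither, at 54.8% G or C. Windows of 250 bases before and 50 after the start were searched for 7 motifs on both strands. Of 32851 such windows in the RefSeq table, 35.7% held a GC box, 37.4% the NF-Y box CCAAT, 13.6% TATAAA and 7.15% an E-box. Among the 10 windows of the 7 members in the table, 5 held a GC box, 3 CCAAT, 2 an E-box and 0 TATAAA. The sterol regulatory element core TCACNCCAC was in 1.24% of all windows. The nuclear receptor element AGGTCA as a direct repeat spaced by 1 base and by 4 bases was in 0.0396% and 0.0152%. None of these 3 was in a member's window. Gpd1, Dgat1 and Dgat2 had no entry.

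Glycerol 3-phosphate comes from the glycolytic intermediate dihydroxyacetone phosphate through Gpd1, the cytosolic glycerol-3-phosphate dehydrogenase, or from free glycerol through Gk, the glycerol kinase. Gpd1 (ENSMUSG00000023019, chromosome 15, 99717515 to 99725005 on GRCm38) was at 410, 502 and 230 CPM in knockout replicates 1, 2 and 3 and at 219 and 342 CPM in control replicates 1 and 3. Knockout replicate 3 lay between the controls, and the log2 fold change was 0.44 (SE 0.35, edgeR unadjusted p = 0.254). Gk (ENSMUSG00000025059, chromosome X, 85701937 to 85776819) was at 121, 128 and 99.1 CPM in knockout and at 100 and 87.0 CPM in control livers. Its groups missed separation by the margin between knockout replicate 3 and control replicate 1, which was 1.13% of the control value. The fitted log2 fold change of Gk was 0.31 (SE 0.16, edgeR unadjusted p = 0.0864).

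Gpam, the mitochondrial glycerol-3-phosphate acyltransferase, catalyses the first acylation, often regarded as the committed step. Gpam (ENSMUSG00000024978, chromosome 19, 55069734 to 55099451) was at 377, 284 and 151 CPM in knockout and at 234 and 180 CPM in control livers. The highest and the lowest library were both knockout, a 2.50-fold range within that group against 1.30-fold between the controls. The log2 fold change was 0.39 (SE 0.36). Gpat4, the other main enzyme of this step and located in the endoplasmic reticulum, had a log2 fold change of 0.04 (SE 0.21). Per kilobase of exon, Gpam made up 63.7%, 65.3% and 43.2% of the summed level of the 4 enzymes of the step in knockout livers and 53.1% in each control liver. Gpat4 held 34.9%, 32.5% and 55.5% in knockout livers and 45.3% and 44.8% in control livers. It thus stood above Gpam in knockout replicate 3 and below it in every other library. Gpat2 and Gpat3 stayed at 0.391% to 1.15%.

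Agpat2 and Agpat3 add the next fatty acid. Agpat2, whose loss causes lipodystrophy in mice and humans, was at 162, 156 and 136 CPM in knockout and at 105 and 134 CPM in control livers (ENSMUSG00000026922, chromosome 2, 26593057 to 26604417). Every knockout library was above both controls, but the gap between knockout replicate 3 and control replicate 3 was 1.46% of the control value. Its log2 fold change was 0.34 (SE 0.16, edgeR unadjusted p = 0.0703), and 0.17 without control replicate 1. Of its exon bases, 64 (3.0%) overlap Egfl7 on the opposite strand, which had up to 702 counts in a library, and reads of the shared bases cannot be told apart. Agpat3 (ENSMUSG00000001211, chromosome 10, 78269178 to 78352489) was at 229, 250 and 200 CPM in knockout and at 200 and 227 CPM in control livers, with a log2 fold change of 0.08 (SE 0.15). The interval of Agpat3 spans 0.827-fold to 1.36-fold. Per kilobase of exon, Agpat2 led the step in all 5 libraries, with 54.4% to 62.2% of the summed level over Agpat1 to Agpat5 and Lclat1. Agpat3 held 24.7% to 29.2%. By CPM, Agpat3 was above Agpat2 in all 5 libraries. The lead of Agpat2 thus rests on the summed exon lengths, 2130 bases for Agpat2 and 7577 for Agpat3.

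The lipins convert phosphatidate to diacylglycerol, and Lpin1 also acts as a transcriptional coactivator that is known to be induced by fasting. Lpin1 (ENSMUSG00000020593, chromosome 12, 16535669 to 16589770) varied most among the members above 10 CPM: it was at 162, 86.1 and 314 CPM in knockout and at 64.9 and 121 CPM in control livers. Knockout replicate 2 lay between the controls. The log2 fold change was 1.01 (SE 0.54, edgeR unadjusted p = 0.107), but leaving out knockout replicate 3 gave 0.42 and leaving out control replicate 3 gave 1.53. Lpin2 (ENSMUSG00000024052, chromosome 17, 71182560 to 71249817) was at 408, 257 and 327 CPM in knockout and at 288 and 256 CPM in control livers, with a log2 fold change of 0.28 (SE 0.21). By CPM, Lpin2 was above Lpin1 in every library. After division by the summed exon length, 12233 bases for Lpin2 and 5725 for Lpin1, which lipin led changed from liver to liver. The summed exon length need not be that of the transcript made in liver. Per kilobase of exon, the ratio of Lpin1 to Lpin2 was 0.847, 0.716 and 2.05 in knockout and 0.481 and 1.01 in control livers. Lpin3, the least abundant lipin, was at 6.77, 7.75 and 7.03 CPM in knockout and at 6.28 and 5.52 CPM in control livers (log2 fold change 0.28, SE 0.16), so its groups were apart without passing the test.

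Mogat1, a monoacylglycerol acyltransferase, was the rarest member. It had 87, 142 and 12 counts in the knockout libraries and 8 and 41 in the control libraries (ENSMUSG00000012187, chromosome 1, 78510991 to 78538173). These correspond to 2.83, 4.29 and 0.375 CPM in knockout and 0.251 and 1.39 CPM in control livers, a 17.1-fold range over the 5 libraries. Knockout replicates 1 and 2 were high, and knockout replicate 3 was below control replicate 3. The log2 fold change of 1.62 (SE 1.02, edgeR unadjusted p = 0.160) was therefore imprecise: it was 3.30 without control replicate 3 and 0.84 without control replicate 1. Of its exon bases, 12.8% overlap the gene BC035947 on the opposite strand, which had at most 10 counts in a library. Mogat2, the intestinal enzyme, was at 0.126 to 0.586 CPM.

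Dgat1 and Dgat2 both complete triglyceride but belong to unrelated protein families. Dgat2 (ENSMUSG00000030747, chromosome 7, 99153663 to 99182713) was at 575, 546 and 658 CPM in knockout and at 457 and 446 CPM in control livers. The lowest knockout library was 19.5% above the higher control. Its mean was 593 ± 58.0 CPM (SD, n = 3) in knockout and 452 ± 8.22 CPM (SD, n = 2) in control livers, a 1.31-fold difference (95% interval 1.03 to 1.67). The log2 fold change was 0.39 (SE 0.15, edgeR unadjusted p = 0.0327, adjusted p = 1.0), and it stayed between 0.31 and 0.45 when any 1 library was left out. Dgat1 (ENSMUSG00000022555, chromosome 15, 76502015 to 76511951) was at 19.7, 19.1 and 22.7 CPM in knockout and at 22.4 and 18.9 CPM in control livers. Its groups overlapped throughout, with a log2 fold change of -0.01 (SE 0.13) and an interval of 0.793-fold to 1.24-fold.

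Dgat2 was the dominant enzyme of the final step in every liver, with 96.5% to 97.5% of the summed level of the pair per kilobase of exon. The ratio of Dgat2 to Dgat1 per kilobase was 39.6, 38.9 and 39.4 in knockout and 27.7 and 32.0 in control livers. The knockout libraries were close to each other and all above the controls. The exact two-sided permutation p of this ratio was 0.2, the smallest that 3 against 2 libraries allow, and 0.4 after Benjamini-Hochberg adjustment over the 4 ratios of isoenzymes examined. The ratio of Agpat2 to Agpat3 was likewise apart, at 2.52, 2.22 and 2.42 against 1.86 and 2.10 (exact permutation p = 0.2, adjusted 0.4). The ratios of Lpin1 to Lpin2 and of Gpam to Gpat4 overlapped between the groups (exact permutation p = 0.6 for each).

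**Figure D3:**
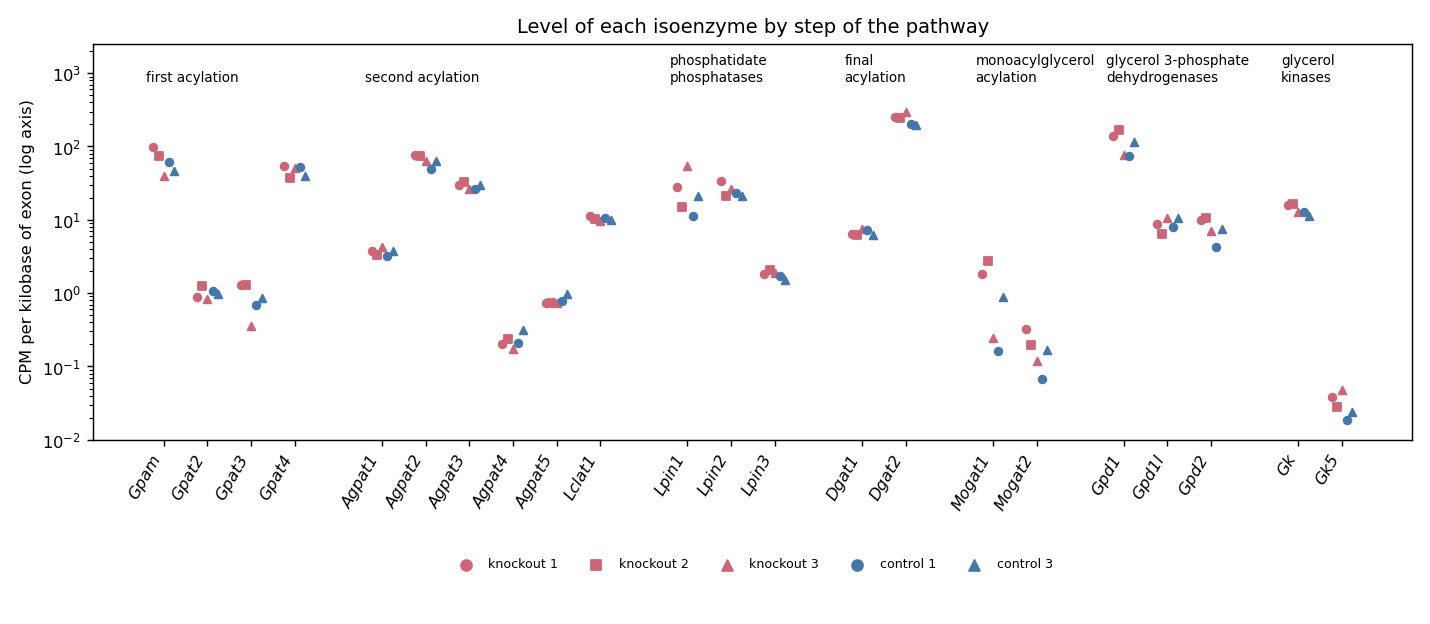
CPM per kilobase of exon (y axis, log scale) of the enzymes of each step in the 5 distinct libraries, 1 point per library. Dgat2 and Gpd1 lead their steps in every library. Lpin1 and Lpin2 lie close together and exchange places, and Gpat4 is above Gpam in knockout replicate 3 only.

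Compared per kilobase of exon, Dgat2 was the most abundant member in every library, at 198 to 292 CPM per kilobase, and Mogat1 the least, at 0.161 to 2.75. Control means between these were 94.7 ± 29.3 for Gpd1, 56.1 ± 9.81 for Agpat2, 54.0 ± 9.94 for Gpam, 28.2 ± 2.51 for Agpat3, 22.2 ± 1.90 for Lpin2, 16.2 ± 6.87 for Lpin1, 12.1 ± 1.202 for Gk and 6.76 ± 0.799 for Dgat1 (CPM per kilobase, SD, n = 2). Of these neighbours, Agpat2 and Gpam, Lpin2 and Lpin1, and Lpin1 and Gk differed by less than the larger SD of the pair. In knockout livers the means were 128 for Gpd1, 71.1 for Agpat2, 70.6 for Gpam, 32.7 for Lpin1, 29.9 for Agpat3, 27.0 for Lpin2, 15.0 for Gk and 6.70 for Dgat1. Lpin1, with an SD of 20.3, thus stood above Agpat3 and Lpin2 there, by less than that SD.

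The enzymes did not vary together from liver to liver. Gpd1, Gk, Gpam, Agpat2, Agpat3 and Mogat1 were higher in both knockout replicates 1 and 2 than in knockout replicate 3, as were 36.3% of all kept genes. Lpin1, Dgat1 and Dgat2 were highest in knockout replicate 3. Control replicate 1 was above control replicate 3 in 5 members and below it in the other 5. Of the 9 members with a mean of at least 2 CPM, 7 ranged more widely from the lowest to the highest library than the median gene above that level (1.34-fold), and 3 (Gpd1, Gpam and Lpin1) exceeded its 90th percentile of 2.004-fold. Mogat1, with its 17.1-fold range, was below 2 CPM and is not ranked among them.

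**Figure D4:**
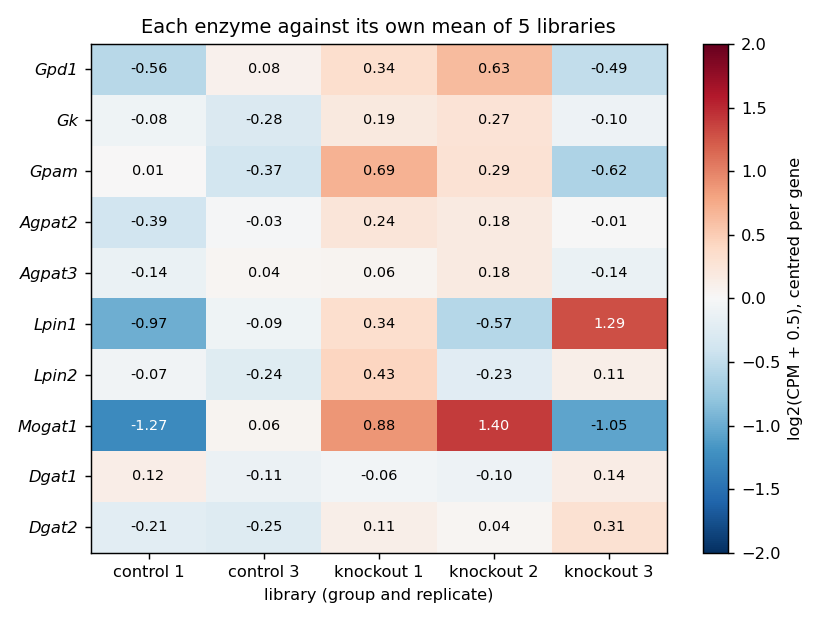
log2(CPM + 0.5) of each enzyme in each of the 5 libraries, minus that enzyme's mean over them (colour and printed value). Lpin1 is highest in knockout replicate 3 (1.29), where Mogat1 (-1.05), Gpam (-0.62) and Gpd1 (-0.49) are low.

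The order of the libraries in the most variable enzymes recurred in genes outside the group, which were picked from the lists after their values were seen. Gpd1 and Mogat1 had the same order of the 5 libraries, with knockout replicate 2 highest, then knockout replicate 1, control replicate 3, knockout replicate 3 and control replicate 1. That order was found in 1.13% of all kept genes. It was also that of Gpd2 and Aqp9, 2 of 23 other genes of the pathway, of 1 of 16 phospholipid genes (Cept1) and 2 of 6 adipocyte markers (Plin4 and Cidea, lipid droplet genes), and of Apoa4, an apolipoprotein of intestine and liver. The reverse order was that of Cry2, 1 of 15 clock genes, and Cps1, 1 of 9 hepatocyte markers. The share of all kept genes with this reverse order is not given here, so these 2 genes have no background to be set against. Apoa4 was at 438, 804 and 142 CPM in knockout replicates 1, 2 and 3 and at 118 and 291 CPM in control replicates 1 and 3.

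Lpin1 followed another order, from knockout replicate 3 through knockout replicate 1, control replicate 3 and knockout replicate 2 to control replicate 1, found in 1.51% of all kept genes. It was shared by 1 of 23 other pathway genes (Agpat1), 2 of 15 clock genes (Cry1 and Hlf) and 1 of 12 fasting genes. The last was G6pc, the glucose-6-phosphatase of gluconeogenesis, at 726, 372 and 1228 CPM in knockout and at 202 and 692 CPM in control livers. The reverse order, found in 1.19% of all kept genes, was that of 1 of 15 clock genes (Nr1d1) and 1 of 5 erythroid markers (Hbb-bt). Nr1d1, which encodes the clock repressor REV-ERB alpha, was at 49.2, 113 and 32.9 CPM in knockout and at 170 and 63.0 CPM in control livers. The part of clock, fasting or erythroid genes in the spread of Lpin1 was not tested.

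Single libraries moved several of these differences. Without knockout replicate 1, the log2 fold change of Gpam was 0.07 and that of Lpin2 0.10. Without knockout replicate 3, Gpam was at 0.68 and Gpd1 at 0.70. Without control replicate 1, Gpd1 was at 0.15, and without control replicate 3 at 0.80. The median of the 10 ranged from 0.28 to 0.41 as each library was left out, and no member passed the adjusted threshold in any of these fits.

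**Figure D5:**
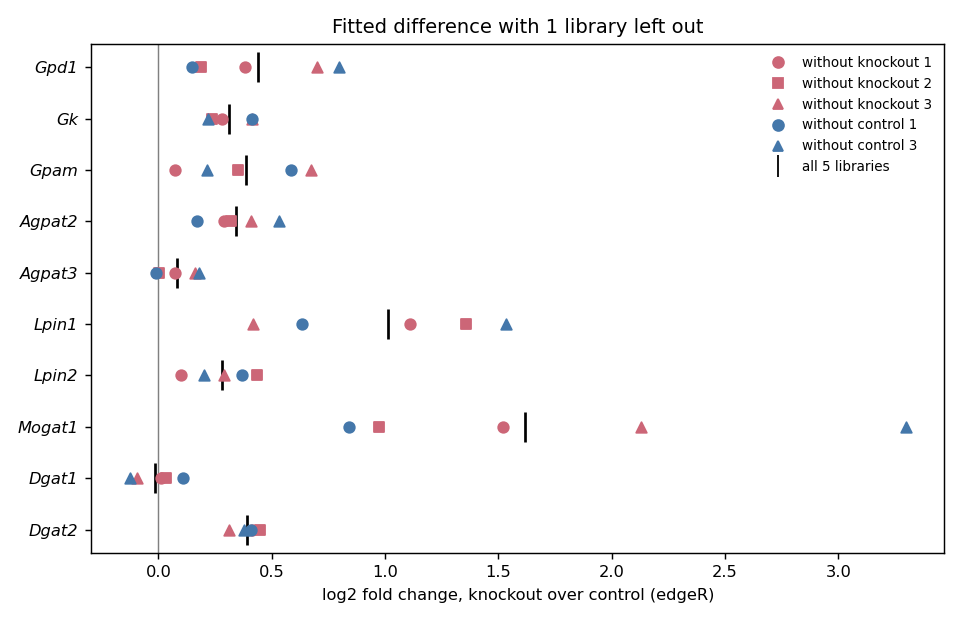
Log2 fold change of each enzyme (x axis) with all 5 libraries (black bar) and after leaving out each library in turn (coloured points). The points of Dgat2 stay between 0.31 and 0.45, while those of Lpin1 run from 0.42 to 1.53 and those of Mogat1 from 0.84 to 3.30.

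Another 25 genes that act around the same steps were examined, of which 23 passed the filter on low counts and the glycerol channels Aqp3 and Aqp7 had at most 1 count in any library. None passed the edgeR test, and 0 had an unadjusted p under 0.05. There were 13 with higher and 10 with lower fitted levels, and the median log2 fold change was 0.04. Gpd2, the mitochondrial glycerol-3-phosphate dehydrogenase, had the smallest p of them: it was at 64.2, 68.8 and 45.7 CPM in knockout and at 27.5 and 49.2 CPM in control livers, with a log2 fold change of 0.64 (SE 0.28, edgeR unadjusted p = 0.0624). Aqp9, the glycerol channel of hepatocytes, had 0.23 (SE 0.16). Acsl1 and Acsl5, which activate fatty acids to acyl-CoA, had 0.07 (SE 0.16) and 0.06 (SE 0.22). The knockout libraries were wholly above the controls for 3 of 23, Gk5, Lpin3 and Plpp3, beside 8.16% of all genes. They were wholly below for 3 of 23, Agpat5, Plpp1 and Ctdnep1, beside 8.72%. Gk5 had only 10, 8 and 13 counts in knockout and 5 and 6 in control libraries. Plpp3 was apart by 1.09% of the higher control value. Ctdnep1 encodes the phosphatase that activates lipins, and its log2 fold change was -0.17 (SE 0.15).

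Phosphatidate and diacylglycerol also feed phospholipid synthesis. Of 17 genes of these branches, 16 were kept, 11 with higher and 5 with lower fitted levels (median 0.12), and none passed the edgeR test or had an unadjusted p under 0.05. Crls1, the cardiolipin synthase, had the smallest p, with a log2 fold change of 0.27 (SE 0.12, edgeR unadjusted p = 0.0557). Pcyt1a, which controls phosphatidylcholine synthesis, had 0.26 (SE 0.15).

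Lipogenic genes under insulin and SREBP-1c supply the fatty acids for these enzymes. Their fitted levels were higher in knockout livers for 13 of 13 (median 0.71), and 0 passed the edgeR test (smallest adjusted p 0.970, for Fasn). At an unadjusted p under 0.05 by edgeR there were 4 of 13, Fasn (log2 fold change 1.15, SE 0.17), Acacb, Elovl6 and Acly, beside 1.63% of all genes in that direction. The knockout libraries were wholly above the controls for 5 of 13, Acacb, Acly, Elovl6, Fasn and Pklr, beside 8.16% of all genes. Of 12 fasting-induced genes, 9 were higher and 3 lower (median 0.19). Of 15 clock genes, 8 were higher and 7 lower (median 0.05), and 0 passed in either list. At an unadjusted p under 0.05 by edgeR there were 2 of 12 and 0 of 15, beside 3.43% of all genes in either direction. Ppargc1a, a coactivator of the fasting response, and Igfbp1, which insulin represses, had the smallest p among fasting genes and opposite directions, at 0.51 (SE 0.18) and -0.75 (SE 0.27).

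Other cell types that make triglyceride were checked by their markers. Of 10 adipocyte genes, 6 were kept, 4 of them higher, and their sum was 46.3, 57.0 and 30.6 CPM in knockout and 33.8 and 35.3 CPM in control livers, highest in knockout replicates 1 and 2 as Gpd1 and Mogat1 were. The kept genes include Cidea, Cidec and Plin4, lipid droplet genes that fatty hepatocytes also express. The defining genes Adipoq, Lep and Plin1 had at most 1 count in any library. Of 8 enterocyte genes, 5 (Alpi, Lct, Sis, Cdx1 and Cdx2) had at most 1 count, and 2 were kept, Fabp2 and Apoa4, which liver also expresses. The enterocyte sum, nearly all from these, was 567, 931 and 213 CPM in knockout and 174 and 355 CPM in control livers, again high where Mogat1 was high. The 10 skeletal muscle genes summed to 46.1 CPM in knockout replicate 1 and to 0.966 to 1.31 CPM in the other libraries. Without that library, the log2 fold change of Gpam was 0.07 in place of 0.39 and that of Lpin2 0.10 in place of 0.28, while Dgat1 was at 0.01 in place of -0.01. The other 7 members were then at 0.38 (Gpd1), 0.28 (Gk), 0.29 (Agpat2), 0.07 (Agpat3), 1.11 (Lpin1), 1.52 (Mogat1) and 0.41 (Dgat2). All 7 endothelial and all 8 stellate markers were lower, with medians of -0.51 and -0.23, and none passed. By edgeR, 2 and 3 of them had an unadjusted p under 0.05, beside 3.43% of all genes in either direction. So did 2 of the 6 kept adipocyte genes (Cidec and Plin4, both higher) and 1 of the 2 enterocyte genes (Fabp2, higher). Among the 5 kept cholangiocyte markers there was 1 (Sox9, lower), and the other marker lists had none. Lower fitted levels were also found for 7 of 8 Kupffer and macrophage, 5 of 5 erythroid and 3 of 3 pancreatic acinar markers kept. The same held for 7 of 9 hepatocyte and 3 of 5 cholangiocyte markers. The part of these cell types in the enzyme levels was not tested.

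The 5 genes above 2 CPM closest to the mean pattern of the members, by Euclidean distance between centred log2 values over the 5 libraries, were Tmem135, Slc50a1, Mmadhc, Tead1 and Gbp3. Their distances were 0.0458, 0.0701, 0.111, 0.145 and 0.149. Tmem135 was at 100, 93.0 and 78.0 CPM in knockout and at 65.0 and 73.9 CPM in control livers.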

How the data were processed

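Per the labels' protocols, whole-liver RNA gave TruSeq libraries, read on a HiSeq2500. The authors deposited raw read counts per gene, with summed exon length as another column. Tools listed in the submitters' processing notes are featureCounts 1.4.6-p4, Subread 1.4.6-p4, Trimmomatic 0.33 and FastQC, and the builds are mm10 and GRCm38. The sources used here do not give the strand setting, the treatment of multiple matches or the annotation release, so reads of overlapping genes on opposite strands cannot be told apart. GENCODE vM21, on the same build, named 46488 rows.

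Groups were compared with edgeR 4.0.16 in R 4.3.3 (filterByExpr, TMM, quasi-likelihood F test, two-sided, Benjamini-Hochberg over 16441 genes, threshold 0.05), 3 knockout against 2 distinct control libraries. Standard errors and 95% intervals came from the F statistic. The labels give 3 mice per group as biological replicates. The gene tests were checked on simulated data. DESeq2 1.42.0, limma 3.58.1, other scalings, no filter, a robust prior, all 6 columns, a replicate block and leaving out each library were tried. On the TMM scale a count of 3 equals 0.0905 to 0.102 CPM, which covers counting error only.

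Named genes are all 10 members, Mtdh, pathway genes of a member's step or with groups apart, those of smallest p in further lists, and the 5 of nearest pattern. Other genes were chosen after their values were seen. The members and lists were chosen with earlier results of these data known. Promoters are RefSeq's on GRCm38.p6, and protein sequences were not used here. Library orders are not reported here for every listed gene.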

Additional observations from a re-analysis of the deposited data

How the results depend on the processing

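No member passed the adjusted threshold under any of the 14 alternatives. Of the members, 9 or 10 had a higher fitted level in each, and the median log2 fold change of the 10 stayed between 0.28 and 0.41. Directions changed only for members close to 0. Dgat1 was at 0.037 with the replicate block and ran from -0.13 to 0.11 as single libraries were left out, and Agpat3 from -0.009 to 0.18. Over all genes, edgeR called 1, Mtdh, and 1 to 6 as single libraries were left out, with 6 without control replicate 3, which left 1 control library assumed to vary like the knockout group. Without a low-count filter edgeR called 3, Mtdh, A930036K24Rik and Gm3191, and DESeq2 called 19. With the replicate number as a block edgeR called 0 (771 at an unadjusted p under 0.05), and Mtdh had an adjusted p of 0.0517, against 1.11e-98 (DESeq2) to 0.0119 in the other alternatives. The cause of these differences was not tested. Only 2 numbers are shared by the groups, and the numbers were not taken as pairs. Deviations of same-numbered libraries from their group means correlated at 0.06 and 0.155 across genes. Those of knockout replicate 2 and control replicate 1 correlated at 0.11. With 2 controls, the deviations of one are the reverse of the other's, so these correlations cannot decide whether the libraries are paired. In the blocked fit knockout replicate 2 has no partner. Mogat1, with 8 to 142 counts, is the member most limited by depth.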
